A study of Mus musculus with 2 samples.

Results

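Regulatory T cells (Tregs) restrain other lymphocytes partly through what they secrete and partly through enzymes on their surface, and 7 genes of these systems are described here in T cells of the NOD mouse islet. They are the cytokine genes *Il10* and *Tgfb1*, *Ebi3* (the subunit that IL-35 and IL-27 share), the ectoenzyme genes *Entpd1* (CD39) and *Nt5e* (CD73), *Itgb8* (the integrin β8 chain) and *Fgl2* (a secreted fibrinogen-like protein). They were chosen by symbol, 7 of the 27998 genes in the count tables, and all 7 were detected in both libraries. Each library was made from the pooled islets of 6 female NOD mice aged 9 to 10 weeks, 1 pool being wild type for *Tnfrsf9* (NOD.Foxp3-EGFP) and 1 knockout (NOD.Tnfrsf9-/-.Foxp3-EGFP). Both strains carry a reporter that puts EGFP under the control of *Foxp3*, and the knockout lacks *Tnfrsf9*, the gene for the costimulatory receptor CD137, in all its cells. CD8 T cells and GFP+ CD4 T cells were sorted from each pool and run together. With 1 library per genotype there was no replicate and no test across mice, a difference of genotype and a difference of library cannot be told apart, and every interval below is at 95% and covers counting error only.

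IL-10 and TGF-β act on nearby cells through their receptors, but TGF-β leaves the cell in a latent complex and must be freed from it. The integrin αvβ8, made of the *Itgav* and *Itgb8* products, is known for doing so at the surface of Tregs, where the *Lrrc32* product GARP holds the complex. CD39 breaks extracellular ATP down to AMP and CD73 turns AMP into adenosine, which dampens T cells through its receptors. EBI3 pairs with the *Il12a* product p35 to form IL-35, and FGL2 acts on antigen-presenting cells through Fc receptors.

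The sequence on which integrin αvβ8 acts is the RGD integrin-binding (arginine, glycine, aspartate) triplet near the C-terminal end of the latency-associated peptide. In GRCm38 it lies in exon 5 of *Tgfb1*, within the 30 bases of chr7:25697133-25697162 on the plus strand, with the arginine at codon 244 of 390. These bases are shown with the 3 codons in capitals because *Tgfb1*, *Itgb8* and *Itgav*, the genes of this interaction, are followed together below.
Tgfb1 RGD: cccaaacgtCGGGGCGACctgggcaccatc

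The 100 bases before the RefSeq transcription start (GRCm38.p6) are shown for *Tnfrsf9*, for *Itgb8* and *Tgfb1*, the 2 members higher in Tregs with many *Tnfrsf9* UMIs, and for *Ebi3*. Capitals mark matches, on either strand, to the NF-κB motif, to the AP-1 motif TGANTCA or to the GC box GGGCGG.
Tnfrsf9, chr4:150927899-150927998, plus strand: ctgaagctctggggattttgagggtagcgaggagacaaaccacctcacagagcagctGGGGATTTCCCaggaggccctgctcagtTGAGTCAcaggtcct
Itgb8, chr12:119238277-119238376, minus strand: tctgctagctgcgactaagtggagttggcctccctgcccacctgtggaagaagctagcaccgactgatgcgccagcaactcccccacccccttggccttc
Tgfb1, chr7:25686902-25687001, plus strand: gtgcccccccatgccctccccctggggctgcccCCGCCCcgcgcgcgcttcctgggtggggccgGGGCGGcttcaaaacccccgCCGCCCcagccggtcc
Ebi3, chr17:55952523-55952622, plus strand: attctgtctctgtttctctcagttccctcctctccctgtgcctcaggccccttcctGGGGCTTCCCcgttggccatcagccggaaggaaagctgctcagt

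This *Tnfrsf9* window held 2 overlapping NF-κB matches and 1 AP-1 match, and that of a second RefSeq start of the gene, further upstream, had only 1 GC box. The *Ebi3* window held 1 NF-κB match, the *Tgfb1* window 3 GC boxes, and the *Itgb8* window none of the 3 motifs. No other member window held an NF-κB match, and the level of *Ebi3* had no order by *Tnfrsf9* UMIs (below). Of the members not shown, *Fgl2* had 1 AP-1 match and 1 GC box, *Nt5e* 2 GC boxes that overlap, and *Entpd1* none in either of its 2 windows. Over 32851 windows of the same length, 1.5% held the NF-κB motif, 2.73% the AP-1 motif and 24.7% the GC box. A match describes the letters in the window and says nothing of binding.

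The wild-type library held 2804 barcodes and the knockout library 2991. After removal of cells outside 200 to 5000 genes or above 20% mitochondrial UMIs, 2714 and 2915 remained. A cell counted as a Treg when it had no *Cd8a* or *Cd8b1* UMI and at least 1 UMI of *Cd4*, *Foxp3*, *Il2ra* or *Ikzf2*, and as a CD8 T cell when it had at least 2 *Cd8a* or *Cd8b1* UMIs and none of *Cd4* or *Foxp3*. This gave 1552 wild-type and 1444 knockout Tregs (8888924 and 8152788 UMIs, medians of 4302 and 4308.5 per cell) and 891 wild-type and 1200 knockout CD8 T cells (7014920 and 7908290 UMIs, medians of 6076 and 5275), and 271 cells of each library went into neither class. Among Tregs, the Treg gene *Ctla4* had a UMI in 94.6% (wild type) and 93.6% (knockout) of cells, while *Foxp3* had one in only 13.2% and 19.5%. *Ctla4* does not set the classes apart, since 65.1% and 50.4% of CD8 T cells had a UMI of it. The other Treg shares were 95.4% and 93.6% for *Ikzf2*, 80.2% and 79.2% for *Tnfrsf18*, 60.4% and 57.8% for *Cd4*, and 37.0% and 42.4% for *Il2ra*. *Ikzf2*, which alone could admit a cell to the class, also had a UMI in 40.3% and 28.1% of CD8 T cells. The 2 libraries shared 16 barcodes. The level of a gene is its CPM, that is its UMIs per 1000000 UMIs of the class. Summed markers of other cell types in Tregs were at 2.02 and 5.89 CPM for 7 myeloid genes (*Csf1r* at 0 in both libraries), at 13.5 to 22.8 CPM for acinar and endocrine genes, and at 68.2 and 94.7 CPM for 5 endothelial or stromal genes, nearly all from 1 of them. The 30 wild-type and 34 knockout Tregs with at least 2 genes of any such list held between 1.05% and 5.68% of a member's Treg UMIs.

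*Tnfrsf9*, the targeted gene, reached 337 CPM in wild-type Tregs (2993 UMIs) and 110 CPM in knockout Tregs (898 UMIs), a log2 ratio of −1.61. In CD8 T cells it was at 106 and 32.0 CPM (log2 ratio −1.73). The transcript was thus lower but present in the knockout. Reads of a 3′ library come from the end of the transcript, and the sources used here do not say which part of the gene this allele lacks, so these counts do not check the protein.

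*Il10*, *Itgb8*, *Fgl2*, *Ebi3* and *Nt5e* were higher in Tregs than in CD8 T cells in both libraries, while *Tgfb1* and *Entpd1* lay within 1.5-fold between the lineages of the wild type. *Itgb8* was at 101 CPM (94.1 to 107) in wild-type Tregs and at 4.56 CPM (3.12 to 6.44) in wild-type CD8 T cells, a ratio of 22.0 (15.5 to 32.4). In the knockout it was at 113 and 6.58 CPM. *Il10* stood at 99.0 CPM (92.6 to 106) in wild-type Tregs and at 6.56 CPM (4.80 to 8.75) in CD8 T cells, and in the knockout at 101 and 3.54 CPM. Both genes were therefore at least 11.2 times higher in Tregs at the lower bounds of their wild-type intervals.

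*Fgl2* followed the same order, with 63.2 CPM in wild-type Tregs against 4.99 in CD8 T cells and 66.8 against 8.73 CPM in the knockout. *Ebi3* was sparse. Wild-type Tregs had 95 UMIs of it (10.7 CPM) and CD8 T cells 4, and in the knockout there were 64 UMIs (7.85 CPM) and 2. *Nt5e*, which makes adenosine, was at 100.3 CPM in wild-type Tregs and 32.1 CPM in CD8 T cells, a log2 ratio of 1.65 (1.43 to 1.86), and at 112 and 40.0 CPM in the knockout, a log2 ratio of 1.48. CD73 transcripts were thus present in both lineages, about 3.13 times higher in wild-type Tregs.

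*Tgfb1* was at 239 CPM (229 to 250) in wild-type Tregs and 167 CPM (158 to 177) in CD8 T cells, a log2 ratio of 0.52 (0.41 to 0.62). In the knockout the levels were 202 and 130 CPM (log2 ratio 0.64). *Entpd1* differed between the libraries. In the wild type it was at 62.4 CPM (57.4 to 67.9) in Tregs and 72.8 CPM (66.7 to 79.4) in CD8 T cells, slightly lower in Tregs (log2 ratio −0.22, −0.40 to −0.05), and without proliferating cells the sign turned to 0.24. In the knockout it was at 65.0 CPM in Tregs and 32.4 CPM in CD8 T cells (log2 ratio 1.01, 0.79 to 1.23). The Treg levels of the 2 libraries lay close together, and the CD8 level was the one that differed.

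**Figure D1:**
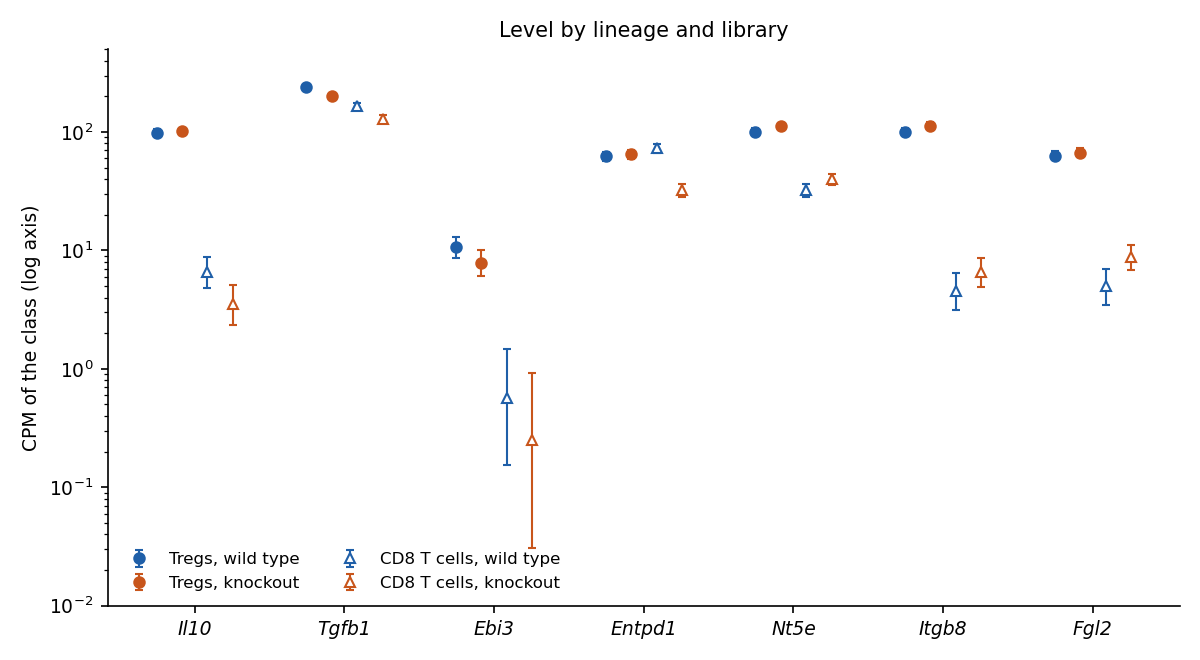
Level of each gene in CPM (log axis) in Tregs (filled circles) and CD8 T cells (open triangles) of the wild-type (blue) and knockout (orange) library, with exact Poisson intervals. The Treg points of *Il10*, *Itgb8*, *Fgl2* and *Ebi3* lie far above the CD8 points, those of *Tgfb1* only slightly, and *Entpd1* in wild-type CD8 T cells (72.8 CPM) lies above its Treg level (62.4 CPM).

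By the threshold used for all comparisons, a 1.5-fold difference among genes with at least 20 UMIs over both groups, 5 of 7 members were higher in wild-type Tregs than in CD8 T cells, against 19.4% of the 11297 genes compared, and 0 were lower, against 8.78%. In the knockout all 7 were higher, against 17.5% of 11419 genes (8.39% lower), since *Tgfb1* (1.55-fold) and *Entpd1* (2.01-fold) then passed. The median log2 ratio of the members was 3.66 and 2.94, beside 0.12 and 0.15 over all genes. Scaling by TMM factors or by the median of ratios moved all ratios of Tregs over CD8 T cells by −0.10 to −0.16 on the log2 scale. *Tgfb1* in the knockout was then at 0.48 (TMM), under the threshold.

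The share of cells with a UMI gave the same picture at equal depth for *Itgb8*, *Il10*, *Fgl2* and *Nt5e*, but not for *Entpd1* in the wild type. Cells were randomly thinned to 2000 UMIs, and those below that depth (76 wild-type and 55 knockout Tregs, 17 and 16 CD8 T cells) were not used. After thinning, *Itgb8* was found in 16.5% of wild-type Tregs and 1.03% of CD8 T cells, *Il10* in 11.8% and 1.49%, *Fgl2* in 10.1% and 1.14%, and *Nt5e* in 18.1% and 7.32%. Before thinning the Treg shares were 30.2%, 18.5%, 18.8% and 33.3%. *Entpd1*, slightly lower in wild-type Tregs by CPM, was found after thinning in 11.8% of them and 11.4% of CD8 T cells. For comparison, CD8 T cells of resting type were taken. They had at least 2 UMIs of *Ccr7* and *Lef1* together and none of *Gzmb*, *Ccl5*, *Pdcd1* or *Mki67*. These were 113 wild-type cells (median 4937 UMIs) and 448 knockout cells (median 4897 UMIs). Of the wild-type ones, 1 had an *Il10* UMI (0.885%), 1 an *Itgb8* UMI and 1 an *Fgl2* UMI. In the knockout no resting cell had an *Fgl2* or an *Ebi3* UMI, 0 of 448 cells, which allows a share of up to 0.670%. The Treg shares of *Il10*, *Itgb8* and *Fgl2* were thus far above those of resting CD8 T cells. These cells were chosen in part by the absence of *Gzmb*, a gene that went with *Il10* and *Fgl2* in Tregs (below), so they are no independent background. *Tgfb1* is different, since after thinning 16.8% (wild type) and 15.4% (knockout) of resting cells had a UMI, at 88.8 and 86.0 CPM.

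Transcripts were unevenly held among Tregs. In wild-type Tregs, 287 cells had *Il10*, 39.4% of them with a single UMI, and the highest held 14 UMIs. Of the 372 cells with *Entpd1*, 69.1% had a single UMI and the highest held 7. *Tgfb1* was found in 879 wild-type Tregs, 42.2% of them with a single UMI. After thinning, 34.5% of 1476 wild-type Tregs had none of the 7 genes, 37.5% had 1, 19.0% had 2 and 7.11% had 3. Only 22 cells had 4, 4 cells had 5 and 1 cell had 6. The knockout was close, with 38.1%, 35.8%, 18.4% and 6.12% for 0 to 3 genes. In wild-type CD8 T cells 61.1% had none and 31.8% had 1.

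In Tregs none of the 7 genes differed between the genotypes by 1.5-fold. *Il10* was at 99.0 CPM in the wild type and 101 CPM in the knockout, a log2 ratio of 0.03 (−0.11 to 0.17). *Entpd1* (0.06) and *Fgl2* (0.08) also had intervals that included 0. *Nt5e* was at 100.3 CPM in wild-type and 112 CPM in knockout Tregs (log2 ratio 0.15, 0.02 to 0.29), and *Itgb8* at 101 and 113 CPM (0.17, 0.03 to 0.30). Both differences were small and, in summed UMIs, just beyond counting error. TMM factors moved both log2 ratios by −0.04 and the median of ratios by −0.06, enough for both intervals to include 0. After thinning, *Itgb8* was at 108.7 CPM in wild-type and 109.1 CPM in knockout Tregs, and *Nt5e* at 107 and 126 CPM. *Tgfb1* was lower in the knockout, 202 against 239 CPM (−0.25, −0.34 to −0.15), a difference of 1.19-fold. *Ebi3* was at 10.7 and 7.85 CPM (−0.45, −0.93 to 0.03), within counting error. Among all 11428 genes compared, 6.93% were higher and 3.62% lower by the threshold, so 0 of 7 stands beside 10.6% in either direction. The median of the members was 0.06 and that of all genes 0.04.

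The ratios of 3 members in this comparison moved when Tregs were taken in another way. With Tregs as the cells that had a *Foxp3* UMI, the log2 ratio of *Fgl2* was 0.54, that of *Tgfb1* −0.47 and that of *Ebi3* −0.84. Such cells were only 13.2% of wild-type and 19.5% of knockout Tregs. No interval was computed for these ratios and the minimum of 20 UMIs was not applied again, so counting error may account for the shifts. *Ebi3* also passed the threshold, as lower, without proliferating cells (−0.72) and with every cell given the same weight (−0.68). Of the 30 partner genes with enough UMIs, drawn from a list of 42 in the same pathways, only *Enpp1*, a phosphodiesterase that also releases AMP, passed it in Tregs (7.54 CPM in the wild type and 11.4 CPM in the knockout, log2 ratio 0.60). *Itgav* was at 349 CPM in wild-type and 284 CPM in knockout Tregs (−0.30, −0.38 to −0.22), and *Lrrc32* at 17.9 and 18.5 CPM (0.05).

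**Figure D2:**
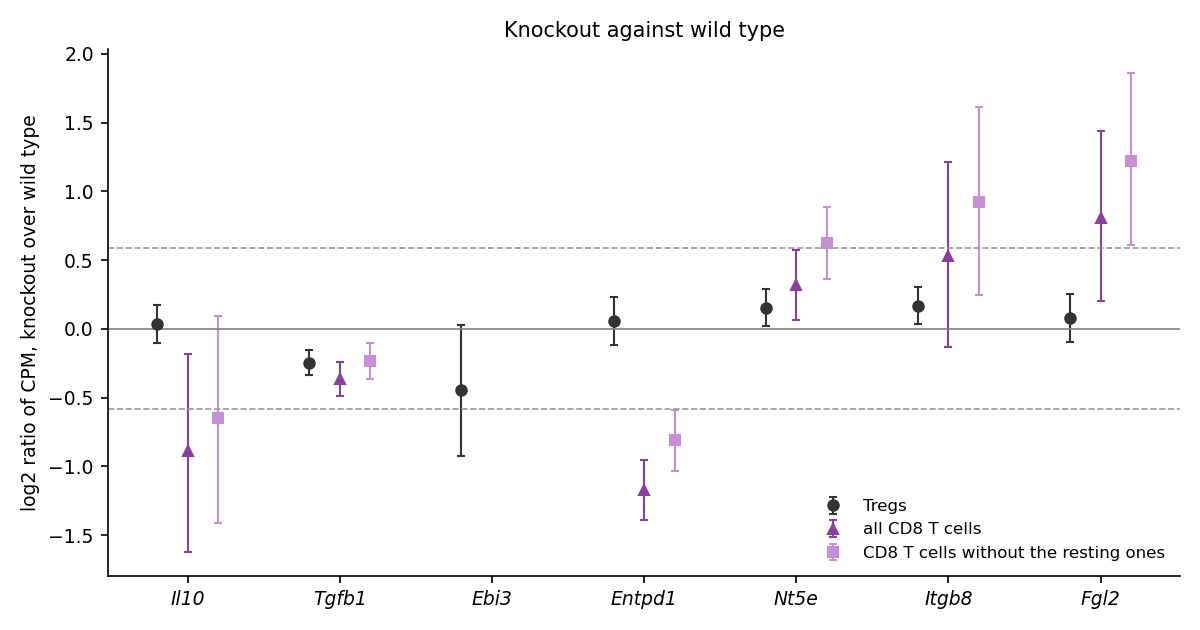
Log2 ratio of CPM, knockout over wild type, with exact conditional intervals, in Tregs (circles), all CD8 T cells (triangles) and CD8 T cells without the resting ones (squares). The dashed lines mark 1.5-fold, *Ebi3* has too few UMIs in CD8 T cells for a point, and the Treg points lie between −0.45 and 0.17 while *Entpd1* in CD8 T cells reaches −1.17.

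CD8 T cells showed larger differences, in both directions. *Entpd1*, a gene of chronically stimulated CD8 T cells, was at 72.8 CPM in the wild type (511 UMIs, 247 of 891 cells) and 32.4 CPM in the knockout (256 UMIs, 128 of 1200 cells), a log2 ratio of −1.17 (−1.39 to −0.95). *Fgl2* was at 4.99 and 8.73 CPM (35 and 69 UMIs), 0.81 (0.20 to 1.44). *Il10* was at 6.56 and 3.54 CPM (46 and 28 UMIs), −0.89 (−1.62 to −0.18). Of the 28 knockout UMIs, 12 lay in 1 cell, while the top wild-type cell held 4. Without the top cell of each library the ratio was −1.57. *Tgfb1* was lower, 130 against 167 CPM (−0.36), and *Nt5e* higher, 40.0 against 32.1 CPM (0.32), both short of 1.5-fold. *Nt5e* turned direction after thinning, with 44.6 CPM in wild-type and 34.2 CPM in knockout cells, and without proliferating cells (−0.20). *Itgb8* had 32 and 52 UMIs (0.53, −0.14 to 1.21), within counting error. By the threshold 1 of the 6 members with enough UMIs was higher, beside 13.7% of 11083 genes, and 2 were lower, beside 8.2%. *Ebi3*, with 4 and 2 UMIs, gave no ratio.

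The libraries differed in how many CD8 T cells were of resting type, 113 of 891 against 448 of 1200, and these cells held little of most members. In knockout CD8 T cells *Entpd1* had 3 UMIs in resting and 253 in other cells, *Itgb8* 1 and 51, and *Fgl2* 0 and 69, which is at least 9.65-fold lower in the resting cells with 3 counts as the floor over the group. *Tgfb1* was at 86.0 CPM in resting and 148 CPM in other knockout cells. All 6 members with enough UMIs were lower in resting than in other CD8 T cells of each library, beside 30.9% of 9935 genes (wild type) and 22.3% of 10267 (knockout). The genotypes were therefore also compared within the other CD8 T cells, 778 wild-type and 752 knockout. *Entpd1* was then at 79.6 and 45.4 CPM (−0.81, −1.03 to −0.59), still lower in the knockout. *Fgl2* (1.22, 0.61 to 1.86), *Itgb8* (0.92, 0.25 to 1.61) and *Nt5e* (0.63, 0.37 to 0.89) were each higher by more than 1.5-fold in summed UMIs. This makes 3 of 6 members higher, beside 12.6% of 10773 genes, and 2 lower, beside 5.59%. With these cells thinned to 2000 UMIs, *Nt5e* was at 48.6 and 46.8 CPM, so that its higher knockout level was not seen in this 1 draw. *Fgl2* was at 7.23 and 14.9 CPM, from 9 and 18 cells with a UMI. *Itgb8* was at 5.26 and 4.75 CPM, from 8 of 761 and 7 of 737 cells, too few to decide whether its difference holds at equal depth. *Il10* was among the 2 lower members (−0.65, −1.41 to 0.09), but its interval included 0. Without proliferating cells, and counted over all CD8 T cells, *Fgl2* was at 0.26 and *Itgb8* at −0.14. The part of cell state in the CD8 differences was not tested.

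Among wild-type Tregs, *Itgb8* and *Tgfb1* were higher the more *Tnfrsf9* UMIs a cell had. Tregs were put into bins of 0, 1, 2 to 4 and 5 or more *Tnfrsf9* UMIs, with 773, 272, 289 and 218 cells. *Itgb8* was at 65.4 CPM (57.2 to 74.6), 71.7 (59.3 to 85.8), 118 (104 to 134) and 177 CPM (158 to 199) in these bins. *Tgfb1* was at 186 CPM (172 to 201), 222 (200.1 to 246), 255 (234 to 278) and 344 CPM (317 to 373). Cells in the top bin thus had 2.71 times the *Itgb8* level (log2 ratio 1.44, 1.19 to 1.70) and 1.85 times the *Tgfb1* level (0.89, 0.73 to 1.05) of cells without a *Tnfrsf9* UMI. Among the 9700 genes compared, these ratios stood at percentiles 98.9 and 95.3.

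The other 5 members had no such order. *Entpd1* was at 59.9, 58.9, 74.2 and 56.4 CPM, and *Nt5e* at 107, 90.5, 114 and 79.9 CPM, with the lowest value in the top bin (−0.42, −0.72 to −0.13). *Fgl2* was at 73.6, 57.1, 65.2 and 45.8 CPM (−0.68, −1.07 to −0.31). *Il10* was at 109, 94.1, 111 and 68.2 CPM (−0.68, −0.99 to −0.37), so that only the top bin stood apart. *Ebi3*, with 17 to 32 UMIs a bin, was at 7.85, 19.4, 8.09 and 11.2 CPM without an order. By the threshold 2 of 7 members were higher, beside 11.9% of 9700 genes, and 2 were lower, beside 14.7%.

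A cell with more UMIs in all is also more likely to fall into a high bin, and the medians were 3486, 4465.5, 5793 and 6243 UMIs. The shares at equal depth, thinned to 2000 UMIs, were 9.99%, 14.9%, 18.9% and 36.2% for *Itgb8* and 28.0%, 33.0%, 38.8% and 49.5% for *Tgfb1*. For *Il10* they were 10.7%, 12.6%, 14.3% and 11.0%, with intervals that all overlap. When cells were first thinned and then divided at 2 or more against 0 remaining *Tnfrsf9* UMIs (215 and 1002 cells), *Itgb8* had a log2 ratio of 1.85 and *Tgfb1* 0.88, while *Il10* turned to 0.38 (−0.08 to 0.81) and *Fgl2* was at −1.29 (−2.19 to −0.50). *Nt5e* was then at 0.14 (−0.34 to 0.60). This division changes the depth and the bins together. In the bins as first drawn, thinned *Il10* levels were 116, 119, 124 and 82.6 CPM, again lowest in the top bin. Neither *Il10* nor *Fgl2* passed the threshold without proliferating cells (−0.34 and −0.50).

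**Figure D3:**
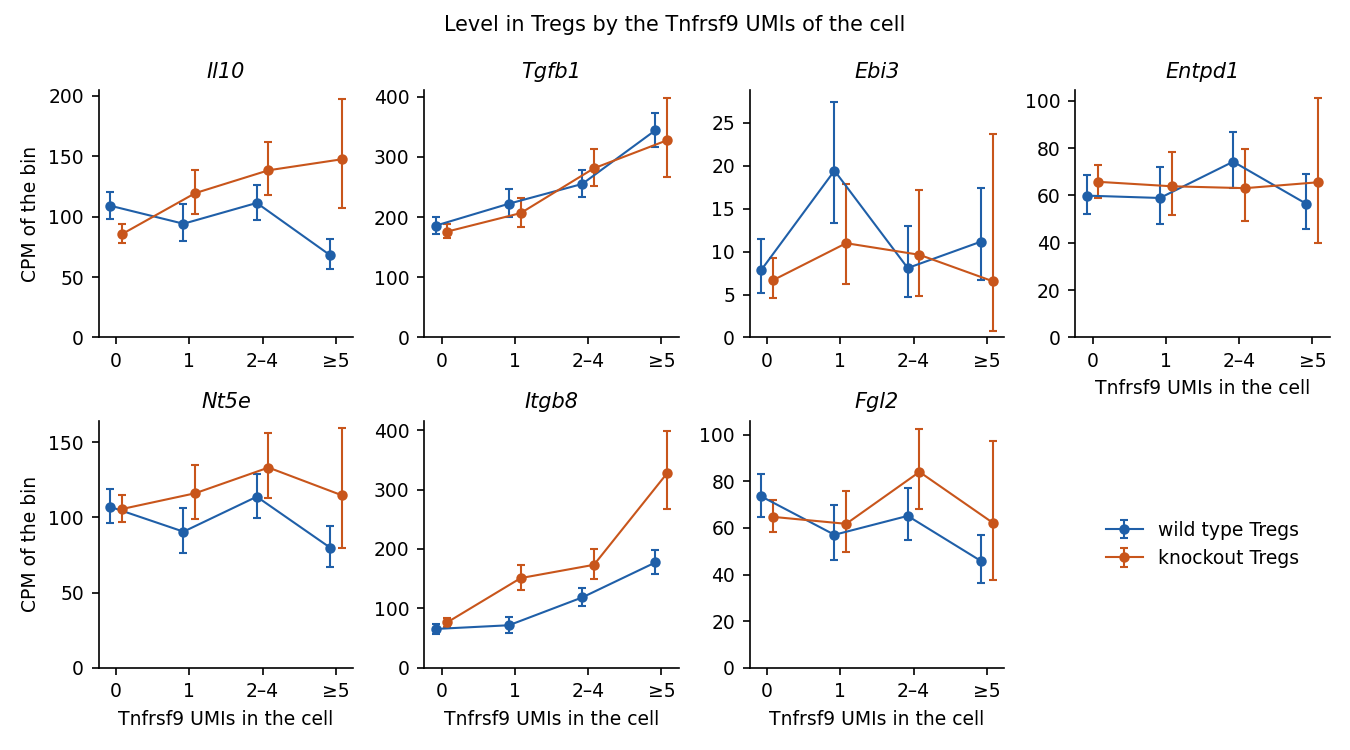
Level of each gene in CPM by the *Tnfrsf9* UMIs of the cell, in wild-type (blue) and knockout (orange) Tregs, with exact Poisson intervals and an axis from 0 in each panel. *Itgb8* and *Tgfb1* are higher in each further bin of both libraries, *Il10* is lowest in the top bin of the wild type (68.2 CPM) and highest in that of the knockout (147 CPM), and *Entpd1* stays between 56.4 and 74.2 CPM.

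Knockout Tregs, divided by their remaining *Tnfrsf9* UMIs, had 1016, 231, 159 and 38 cells in the bins, and what such a UMI stands for in a cell without CD137 is not known from these data. *Itgb8* was at 76.8, 151, 173 and 328 CPM (top bin over 0, log2 ratio 2.09, 1.76 to 2.41), and *Tgfb1* at 176, 207, 281 and 328 CPM (0.90, 0.58 to 1.20). Both genes thus had the same order as in wild-type Tregs. *Il10* had another, with 85.5, 119, 138 and 147 CPM (0.79, 0.31 to 1.23). In the top bin 12 of 38 cells had *Il10*, and 1 cell held 11 of its 45 UMIs. Over the alternatives this ratio went down to 0.47, short of 1.5-fold. *Entpd1*, *Nt5e*, *Fgl2* and *Ebi3* had ratios between −0.06 and 0.12, with intervals that included 0. By the threshold 3 of 7 members were higher, beside 16.9% of 9870 genes, and 0 were lower, beside 18.4%.

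The partners of these genes were counted over the same bins in wild-type Tregs. Of 29 with enough UMIs, 3 were higher and 5 lower by 1.5-fold, shares near the 11.9% and 14.7% of all genes. Over the knockout bins 7 of 29 were higher and 7 lower, beside 16.9% and 18.4% of all genes. *Itgav*, the partner chain of β8, was at 265 CPM in cells with 0 and 603 CPM in cells with 5 or more UMIs, a log2 ratio of 1.19 (1.06 to 1.32), and *Lrrc32* at 11.6 and 30.6 CPM (1.39, 0.77 to 2.03). The third was *Pnp*, a purine nucleoside phosphorylase (0.66, and 0.20 in the knockout). Lower were the TGF-β receptor genes *Tgfbr2* (−0.64, and −0.27 in the knockout) and *Tgfbr3* (−2.23), *Entpd5* (−0.99), *Dpp4* (−1.97) and the ATP-gated channel gene *P2rx7* (−0.70). In the knockout *Itgav* was at 221 and 672 CPM (1.60), while *Lrrc32* was at 18.5 and 22.9 CPM (0.31, −1.04 to 1.41).

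*Tgfb1*, *Itgb8* and *Itgav* were each higher over the bins, and their joint detection is given with them, without a test of whether it goes beyond the single shares. After thinning, a UMI of all 3 was present in 12 of 711 wild-type Tregs without *Tnfrsf9* (1.69%, 0.875 to 2.93%), 2.68% with 1 UMI, 5.24% with 2 to 4, and 29 of 218 with 5 or more (13.3%, 9.09 to 18.5%). In the knockout the shares were 1.96%, 3.56%, 10.1% and 16.2%, the last from 6 of 37 cells. The intervals of the lowest and highest bin lay apart in both libraries.

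**Figure D4:**
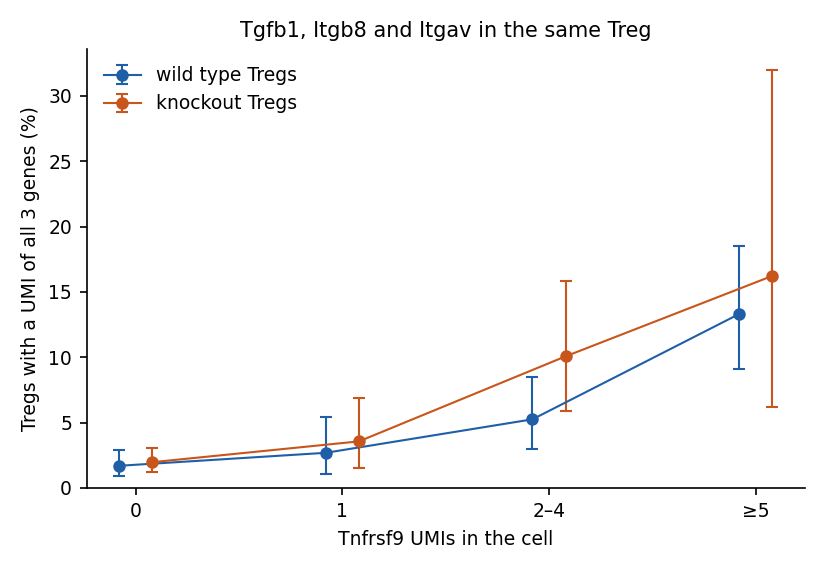
Share of Tregs with a UMI of each of *Tgfb1*, *Itgb8* and *Itgav* after thinning to 2000 UMIs, by the *Tnfrsf9* UMIs of the cell before thinning, with exact binomial intervals, in wild-type (blue) and knockout (orange) Tregs. The share goes from 1.69% to 13.3% in the wild type and from 1.96% to 16.2% in the knockout.

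Of the 21 pairs of members, 4 (wild type) and 5 (knockout) had shares whose intervals lay apart between thinned Tregs with and without the partner, and 4 were the same in both. *Fgl2* was found in 21.8% of wild-type Tregs with *Il10* and 8.53% of those without, and in the knockout in 18.4% and 8.73%. *Entpd1* was found in 21.8% and 10.4% of wild-type Tregs with and without *Il10*, and in 25.2% and 10.0% of knockout Tregs. *Itgb8* with *Il10* came to 24.1% against 15.4% in the wild type and 34.4% against 12.8% in the knockout. *Fgl2* was found in 18.4% of wild-type Tregs with *Entpd1* and 8.99% of those without, and in 22.0% and 8.24% in the knockout. *Il10*, *Entpd1* and *Fgl2* thus tended to share cells in both libraries. All cells of a library share 1 pool, so these shares describe the libraries and carry no p.

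The 2 ectoenzymes that act in series did not share cells in this way. *Nt5e* was found in 21.8% of wild-type Tregs with *Entpd1* (15.9 to 28.7%) and 17.6% of those without (15.6 to 19.8%), and in the knockout in 12.2% (7.61 to 18.2%) and 19.3% (17.1 to 21.6%). The direction differed between the libraries and the intervals overlapped in both. *Tgfb1* and *Itgb8*, the substrate and the activator, had overlapping intervals too, 18.7% against 15.3% in the wild type and 19.6% against 13.6% in the knockout. *Itgav* was found in 56.0% of wild-type Tregs with *Itgb8* and 35.1% of those without, and in 47.8% and 33.7% for *Tgfb1*. In the wild type this was not particular to them, since the shares were 54.0% and 36.5% for *Il10*, 53.4% and 36.6% for *Entpd1* and 57.7% and 36.4% for *Fgl2*. *Nt5e* had no such difference (38.2% and 38.6%). Leaving the sparse *Ebi3* aside, the knockout intervals lay apart for *Itgb8* (51.2% and 31.0%), *Tgfb1* (39.6% and 31.8%), *Il10* (55.2% and 31.2%) and *Entpd1* (47.0% and 32.3%). They overlapped there for *Fgl2* (37.2% and 33.7%) and *Nt5e* (32.8% and 34.3%).

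**Figure D5:**
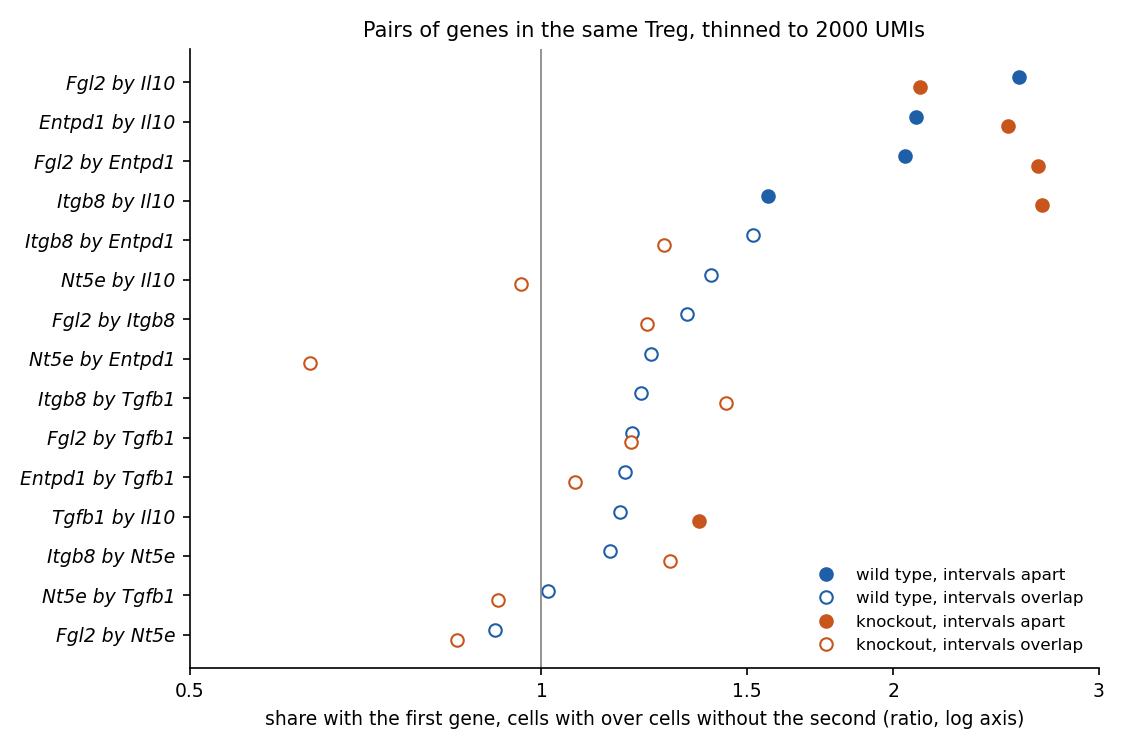
Ratio of the share of thinned Tregs with the first gene, cells with over cells without the second gene (log axis), for the 15 pairs without the sparse *Ebi3*, in wild-type (blue) and knockout (orange) Tregs. Filled points have intervals apart, and the 4 pairs at the top, *Fgl2* and *Entpd1* by *Il10*, *Fgl2* by *Entpd1* and *Itgb8* by *Il10*, are filled in both libraries.

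Of the genes that pair with EBI3, *Il27*, which IL-27 needs and which was added after its values were seen, had 2 UMIs in wild-type and 1 in knockout Tregs. *Il12a*, which IL-35 needs, had 0 UMIs in Tregs of both libraries and 1 (wild type) and 3 (knockout) in CD8 T cells. At these depths a count of 0 allows up to 0.337 CPM in wild-type and 0.368 CPM in knockout Tregs. The transcript was not detectable in Tregs at this depth, where *Ebi3* itself had 95 and 64 UMIs. *Il6st*, the gp130 chain of several receptors of this family, was at 79.4 CPM in wild-type Tregs and 36.8 CPM in CD8 T cells (1.11). In the knockout it was at 87.2 and 66.9 CPM (0.38), under the threshold.

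Of 29 partner genes with enough UMIs in the wild type, 14 were higher and 4 lower in Tregs, beside 19.4% and 8.78% of all genes, and 11 passed in neither direction. In the knockout 11 of 29 were higher and 4 lower, beside 17.5% and 8.39% of all genes. In the adenosine axis 3 were higher and 2 lower of 10 (wild type), beside the same 19.4% and 8.78%. *Maf*, a transcription factor that drives *Il10*, was at 401 CPM in wild-type Tregs and 13.5 CPM in CD8 T cells (log2 ratio 4.89). *Nfil3* (1.64) and *Prdm1* (1.30), both regulators of *Il10*, were higher too. On the TGF-β side *Lrrc32* was at 17.9 and 0.713 CPM (4.65), *Itgav* at 349 and 81.4 CPM (2.10), *Tgfbr1* at 113 and 24.5 CPM (2.21) and *Furin*, the protease that cleaves the precursor, at 40.2 and 19.7 CPM (1.03). *Furin* did not pass in the knockout, at 36.8 and 32.1 CPM (0.20, −0.05 to 0.44). *Tgfbr3* was lower in Tregs, at 11.0 against 107 CPM (−3.28). *Ada*, which removes adenosine, was at 9.79 and 20.1 CPM (−1.04), and the receptor gene *Tigit* at 56.2 and 23.1 CPM (1.28).

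For each member the 3 genes most enriched in Tregs that had a UMI of it were taken from all genes with at least 50 UMIs in those cells of each library, ranked by the smaller lower bound of the log2 ratio over the 2 libraries. The cells are single cells of 1 library each, and cells with a member were deeper than those without. For *Il10* these were *Ccl4* (log2 ratio 3.14 in wild-type and 2.58 in knockout Tregs), *Gzmb* (2.76 and 2.39) and *Cxcr6* (2.18 and 2.32), and median depths were 4985 UMIs with and 4070 without in the wild type. *Entpd1* was most like *Cxcr6* (1.87 and 1.70), *Gzmb* (1.86 and 1.37) and *Fgl2* (1.46 and 1.37). *Fgl2* was most like *Gzmb* (1.91 and 2.56), *Gzmk* (1.98 and 2.51) and *Metrnl* (1.92 and 2.44). *Gzmb*, the granzyme B gene, thus stood among the 3 nearest genes of *Il10*, *Entpd1* and *Fgl2*.

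*Itgb8* was most like *Ccl4* (2.13 and 2.67), *Angptl2* (1.82 and 2.14) and *Il1r2*, a decoy receptor for IL-1 (1.24 and 2.23). *Nt5e* had weaker neighbours, *B3galt1* (0.89 and 1.75), *Tbc1d4* (0.78 and 0.85) and *Slc24a3* (0.86 and 0.83). For *Tgfb1* they were *Rrm2* (3.08 and 2.87), *2810417H13Rik* (2.78 and 2.50) and *Mxd3* (3.49, and 5.95 with an interval of 3.44 to 11.3, the latter from 1 UMI in cells without *Tgfb1*). *Rrm2* is a gene of DNA synthesis, and wild-type cells with *Tgfb1* had a median of 5449 UMIs against 3422. For *Ebi3*, with 75 and 44 cells, they were *Gm43291* (1.21 and 1.91), *Cd74* (0.92 and 1.79) and *Atpif1* (0.79 and 0.75).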

How the data were processed

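The authors sorted the cells, prepared Chromium Single Cell 3′ version 2 libraries and deposited the counts that Cell Ranger 7.0.0 wrote (submitters' notes, build mm10), whole UMIs per gene and called cell, not normalized. Whether intron reads were counted is not given in the sources used here. Doublets were neither called nor removed here.

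Members and lists were chosen with earlier results of these data known. Levels are the class sums of UMIs in each library, scaled to CPM, with Poisson intervals. Shares have Clopper-Pearson intervals and ratios exact conditional ones (95%, numpy 2.4.6, scipy 1.17.1, pandas 2.3.3, Python 3.11.15). The interval step was tested on simulated Poisson and binomial counts, which do not hold the clustering of UMIs within cells. No test was made. TMM factors came from edgeR 4.0.16 in R 4.3.3, for scaling only. Alternatives were other filters, class rules, bins, weights, scalings and UMI minima, and leaving out proliferating, marker-bearing, deep or shared-barcode cells. Thinning used 1 random draw. Resting CD8 T cells were taken by *Ccr7* and *Lef1*, a rule chosen after seeing the data, and 1 further gene planned for it is not reported here. Named beside the 7 members were *Tnfrsf9*, partner genes past 2-fold between lineages in the wild type or 1.5-fold between genotypes in Tregs or between *Tnfrsf9* bins, *Il12a*, *Lrrc32* and *Itgav* at any value, and the 3 genes most like each member. Gene positions and the RGD codons came from GENCODE (GRCm38), a C57BL/6 reference, and promoters from RefSeq, whose table had none for *Il10*.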

Additional observations from a re-analysis of the deposited data

Results flagged for a closer look

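*Il10* against the *Tnfrsf9* UMIs of the cell went in opposite directions in the 2 libraries. Between Tregs with 5 or more and with 0 *Tnfrsf9* UMIs, its log2 ratio was −0.68 in the wild type (116 and 375 UMIs in 218 and 773 cells) and 0.79 in the knockout (45 and 449 UMIs in 38 and 1016 cells), each beyond counting error. Of the 45 knockout UMIs, however, 11 lay in 1 cell, and only 12 of the 38 cells had any. The knockout ratio went down to 0.47 over the alternatives, short of 1.5-fold. With cells thinned to 2000 UMIs and divided at 2 or more, the ratios were 0.38 and 1.62. In the bins as first drawn the thinned wild-type level was still lower in the top bin, 82.6 against 116 CPM. The difference between the libraries was not tested.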

How the results depend on the processing

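No paired analysis was possible because each genotype has 1 library, and no replicate could be left out for the same reason. Of 568 ratios recomputed under the alternatives, 529 kept their sign, and of 326 past 1.5-fold, 325 did. The exception was *Il10* over the wild-type *Tnfrsf9* bins, 0.38 when cells were thinned to 2000 UMIs and divided at 2 or more. With no minimum of UMIs the share of all genes past the threshold was 42.4% (Tregs over CD8 T cells, wild type) and 41.1% (knockout), 29.2% (knockout over wild type, Tregs), 38.3% (CD8 T cells), and 40.7% and 56.8% (bins, wild type and knockout). With a minimum of 100 UMIs it was 5.46% for the genotypes in Tregs, and 1 member was lower in knockout CD8 T cells. In Tregs 1 member (*Ebi3*) was lower in the knockout, against 0, when Tregs were the cells with a *Foxp3* UMI, without proliferating cells and with equal weights. In CD8 T cells the number of members higher in the knockout, 1 as reported, was 2 with no filter on cells, with at least 4 CD8 UMIs and without the top cell of the gene, and 0 without proliferating cells and with equal weights. Over the wild-type bins, where 2 members were lower, 0 were with 500 to 4000 genes and 10% mitochondrial UMIs, without the top 5% of cells by UMIs, without proliferating cells and at 2 or more *Tnfrsf9* UMIs, and 1 with equal weights. Over the knockout bins 5 were higher, against 3, among cells with a *Foxp3* UMI, and 1 was lower, against 0, without the top cell. For alternatives that change the cells taken, the minimum of 20 UMIs was not applied again. The knockout's full top bin held only 2 *Ebi3* UMIs, and whether all 5 members met the minimum was not checked. The cause of these differences was not tested. Counts are few for *Ebi3*, for *Il10* and *Itgb8* in CD8 T cells and in the knockout's top bin of 38 cells.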
